A study of Mus musculus with 8 samples.

Results

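Gene expression was compared between hepatocellular carcinomas of mice without the telomerase RNA gene (mTERC-, 3 tumours) and of mice with it (mTERC+, 3 tumours). The tumours were chosen by their titles in the labels and account for 6 of the 8 arrays of the series. Every mouse of both groups was p53-/-, carried an HBs transgene and was on the C57BL/6J background, and the carcinomas were taken at 12 to 15 months of age. The labels give neither the sex of the mice nor the generation of the mTERC- mice. Each tumour came from a separate mouse and was hybridised alone, from 6 microg of total RNA. The tissue field of the labels names hepatocytes, whereas the series design describes RNA of the tumour, so each value is that of a bulk tumour. In such bulk samples fewer cells of a type and less RNA per cell cannot be told apart.

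Telomerase adds repeats to chromosome ends, and its RNA component, the product of the mTERC gene (Terc), is the template for these repeats. Without that RNA telomeres shorten with each cell division until they are sensed as DNA breaks, and the protein p53 is a main transducer of that signal towards cell cycle arrest, senescence and death. The HBs transgene makes the surface antigen of hepatitis B virus in hepatocytes, which leads to chronic liver injury, regeneration and liver tumours. The comparison asked how carcinomas differ that arose with and without telomerase where p53 was absent in both. Terc and Trp53, the genes that define the groups, were not analysed here, so the genotype labels were not checked against these arrays.

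Values are MAS5 signals, the summary of the probes of a probe set on a linear scale. Wherever 3 values are listed for a group they belong to its tumours 1, 2 and 3, numbered in the order of the accessions. Differences are mTERC- minus mTERC+ on the scale log2(signal + 32), fitted with limma over the 34958 probe sets that carry 1 gene symbol, and p-values were adjusted by Benjamini-Hochberg over all of them. Where a gene has several probe sets, the one with the highest mean is meant unless another is named. The adjusted p had to be below 0.05 for a call.

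mTERC- tumour 2 stood apart from the others in the control probe sets. The signal of Gapdh near the 5' end of its transcript was 457 in that tumour and 12122 to 20407 in the other 5, and near the 3' end it was 6301 against 13232 to 21634. The ratio of the 3' to the 5' signal was 13.8 in mTERC- tumour 2 and 0.983 to 1.18 in the others. The Actb ratio was 2.283 in that tumour and 1.304 to 1.638 in the others. The 5' control of the 18S ribosomal RNA split the tumours in another way, with 319 and 349 in mTERC- tumours 2 and 3 and 11010 to 27810 in the other 4. The difference between mTERC- tumour 2 and the rest was seen across genes too. It had 555 genes at least 2-fold above and 549 at least 2-fold below all 5 other tumours, of 18194, against 98 to 165 above and 129 to 222 below for each of the others. In the 4776 genes with 2 probe sets at or above the median signal, the log2 level of each probe set was centred on its own mean over the 6 tumours. The median absolute gap between the 2 centred levels was 0.57 in that tumour and 0.35 to 0.39 in the others. For this reason values without mTERC- tumour 2 are given beside those of all 6 tumours for the main results.

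**Figure D1:**
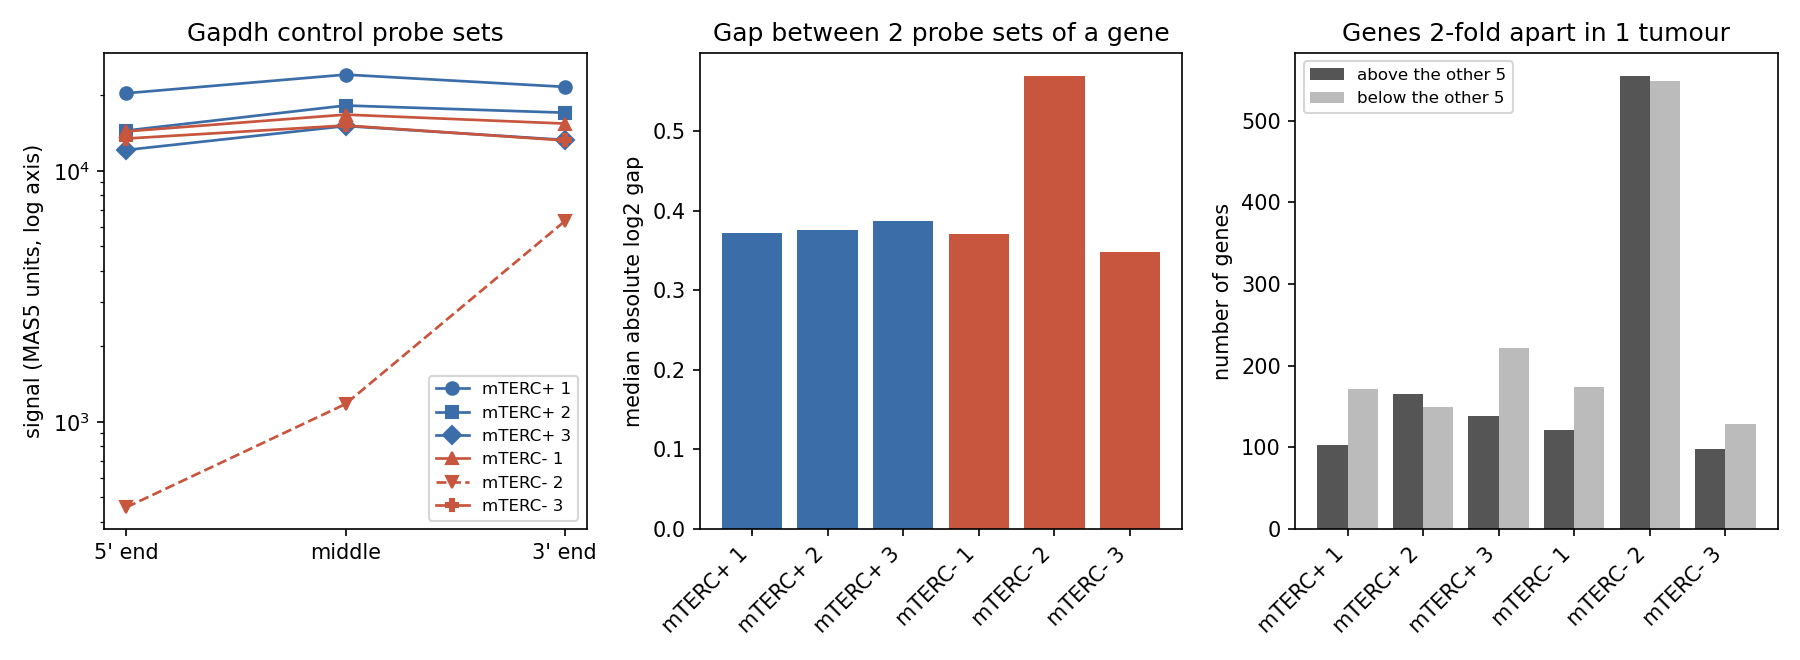
Left, signals of the 5', middle and 3' Gapdh control probe sets of each tumour on a log axis (MAS5 units). Middle, the median absolute log2 gap between 2 probe sets of the same gene, each centred on its own mean over the tumours, over 4776 genes. Right, the number of genes at least 2-fold above or below all other tumours, of 18194 genes. mTERC- tumour 2 has the falling 5' Gapdh signal (457), the widest gap (0.57) and the most genes of its own (555 above, 549 below).

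Genes linked to sex also differed between tumours, and sex is not in the labels. The Xist probe set 1427262_at, for the RNA that silences an X chromosome in females, read 4.9, 3.6 and 5.4 in the mTERC+ and 862, 104 and 38.4 in the mTERC- tumours. Eif2s3y, a Y-linked gene, read 199, 139 and 219.8 in the mTERC+ and 70.5, 142 and 52.8 in the mTERC- tumours. The groups thus did not overlap for this Xist probe set, and mTERC- tumour 1 was far above every other tumour. Of 5 measured Y-linked and X-inactivation genes, each read at its highest-mean probe set, 0 were higher and 0 lower without overlap. Eif2s3y was lowest in mTERC- tumours 1 and 3. In mTERC- tumour 3 it lay below the median signal of all probe sets on that array (54.5). The part of sex in the differences below was not tested beyond a fit with the Y-linked level as a covariate.

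Few differences passed the test over all probe sets. In limma 3 probe sets rose in mTERC- tumours (0.00858% of those tested), those of S100a8, S100a9 and Itih5, and 0 fell (0%). At an unadjusted p below 0.05 there were 1618 probe sets (4.63%). The groups did not overlap in 3539 probe sets (10.1%), and mTERC- tumours were above in 1996 (5.71%) and below in 1543 (4.41%). Without any difference between the groups, a share of 0.05 would reach an unadjusted p below 0.05 and a share of 0.1 would not overlap. Both observed shares were near these. A difference of 2-fold or more was reached by 727 of the former (2.08%) and 509 of the latter (1.46%). The excess of higher ones depended on the scaling, since these counts were 638 and 589 with quantile normalization and 612 and 609 with median centring. Without mTERC- tumour 2, limma called 1 probe set higher (0.00286%), that of S100a8, and 0 lower, with 1329 at an unadjusted p below 0.05 (3.8%). Without mTERC- tumour 1 it called 6 higher and 4 lower, and without mTERC- tumour 3, 1 of each. Arrays correlated within groups (mean r = 0.84) as much as between groups (0.83).

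S100a8 and S100a9 rose in mTERC- tumours, and both code for calcium-binding proteins that pair as calprotectin and are abundant in neutrophils. S100a8 (Entrez Gene 20201, probe set 1419394_s_at) read 318, 776 and 150.4 in the mTERC+ tumours and 7407, 6053 and 2759 in the mTERC- tumours. Every mTERC- tumour was above every mTERC+ tumour, with mTERC- tumour 3 the lowest of its group. Group means were 5406 ± 2391 and 415 ± 324 (SD, n = 3 each). This is a 13.5-fold difference, or 3.75 on the log2 scale (SE 0.43), at an adjusted p of 0.000115 in limma. Without mTERC- tumour 2 the log2 difference of S100a8 was 3.61, with an adjusted p of 0.0437 in limma. The call was lost with no variance trend (adjusted p = 0.912 in limma) and with a block for the 18S control (0.063 in limma). S100a9 (Entrez Gene 20202, probe set 1448756_at) read 653, 1807 and 29.5 in the mTERC+ tumours and 10671, 8033 and 5523 in the mTERC- tumours. Here mTERC+ tumour 3 was far below all others, and the groups again did not overlap. On the log2 scale they were 4.20 apart (SE 0.66), which is 18.4-fold, and limma gave an adjusted p of 0.0193. The difference of S100a9 kept its size without mTERC- tumour 2, at 4.18, but its adjusted p was then 0.601 in limma. Without mTERC+ tumour 3 its log2 difference was 2.80 and it was called, and without mTERC- tumours 1 or 3 it was not called (adjusted p = 0.0738 and 0.0847 in limma). A fit of all probe sets of the array, with or without a gene symbol, was not read for single genes. Among the remaining alternatives with all 6 tumours S100a9 kept its call only with array weights. In the others its adjusted p in limma was 0.0524 to 0.912.

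The third gene that rose was Itih5 (Entrez Gene 209378, probe set 1429159_at), a heavy chain of the inter-alpha-trypsin inhibitor family, whose members bind hyaluronan in the extracellular matrix. Itih5 read 145, 277 and 281 in the mTERC+ tumours and 760.2, 1329.5 and 1309.5 in the mTERC- tumours. The mTERC- tumours were all above the mTERC+ tumours, at 1133 ± 323 against 234 ± 77.8 (SD, n = 3 each). This 4.39-fold difference (log2 2.13, SE 0.36) had an adjusted p of 0.032 in limma. Without mTERC- tumour 2 it was 2.00 (adjusted p = 0.437 in limma). Leaving aside the fit of all probe sets of the array, Itih5 kept its call only with array weights and without mTERC- tumour 1. Its other probe sets, 1436755_at and 1441946_at, were higher in the mean with overlapping groups, at log2 differences of 0.89 and 0.91. The liver-secreted relatives lay the other way, and Itih1 read 2865, 3399 and 2517 in the mTERC+ tumours against 2235.5, 599.9 and 421 in the mTERC- tumours. Its log2 difference was -1.76 (SE 0.42), or -1.53 without mTERC- tumour 2, and it was not called. Itih3 and Itih4 had log2 differences of -0.77 and -0.78, and Itih2 of -0.16, all with overlapping groups, and that of Itih2 was 0.24 without mTERC- tumour 2.

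The promoters of the 3 genes that rose are shown because S100a8 and S100a9 lie close together on chromosome 3 and differed together. Each is the 250 bases before the gene's start in RefSeq, 5′ to 3′ on the gene's own strand in build GRCm38.p6, at chr3:90668821-90669070 (plus strand) for S100a8, chr3:90695722-90695971 (minus strand) for S100a9 and chr2:10153293-10153542 (plus strand) for Itih5. Capitals mark matches to the letters searched.
S100a8: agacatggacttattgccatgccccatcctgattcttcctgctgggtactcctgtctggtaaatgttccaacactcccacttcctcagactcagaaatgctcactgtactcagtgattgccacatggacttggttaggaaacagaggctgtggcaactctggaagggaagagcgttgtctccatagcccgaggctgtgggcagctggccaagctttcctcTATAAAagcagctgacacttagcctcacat
S100a9: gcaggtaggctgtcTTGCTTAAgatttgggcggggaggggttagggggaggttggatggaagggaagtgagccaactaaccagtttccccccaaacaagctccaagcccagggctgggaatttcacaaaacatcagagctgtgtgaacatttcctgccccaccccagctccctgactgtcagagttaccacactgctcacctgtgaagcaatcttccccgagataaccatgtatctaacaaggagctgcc
Itih5: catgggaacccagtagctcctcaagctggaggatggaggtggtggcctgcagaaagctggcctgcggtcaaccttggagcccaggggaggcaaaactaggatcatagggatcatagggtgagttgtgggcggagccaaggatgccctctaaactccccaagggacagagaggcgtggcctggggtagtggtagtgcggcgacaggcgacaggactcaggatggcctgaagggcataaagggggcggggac
The letters searched on both strands were TATAAA for a TATA box, TTGCNNAA for C/EBP factors, TGANTCA for AP-1 and TTCNNNGAA for STAT factors. Of 32851 promoters of this length, 12.4% held TATAAA, 9.56% the C/EBP letters, 6.75% the AP-1 letters and 7.02% the STAT letters. S100a8 held TATAAA from 30 to 25 bases before its start, S100a9 held TTGCTTAA from 236 to 229 bases before its start, and Itih5 held none of the 4. These are matches of letters and not measured sites.

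**Figure D2:**
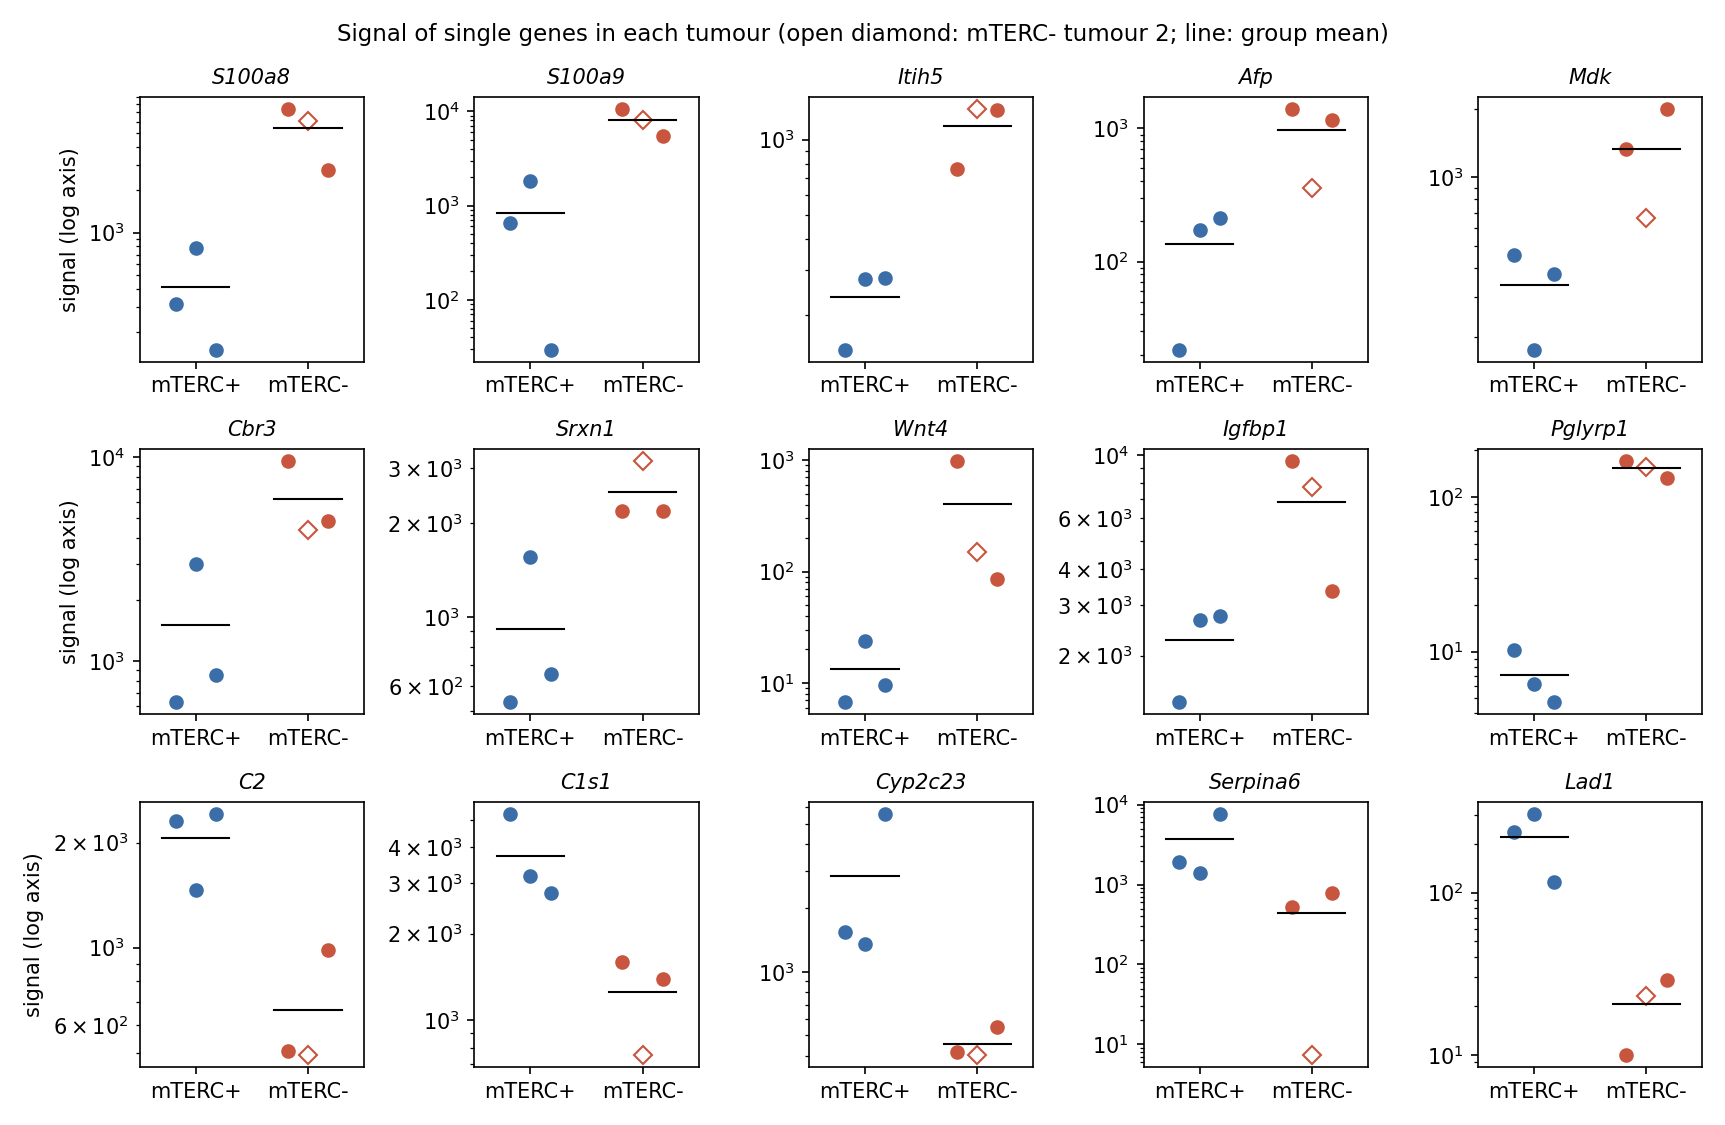
Signals of 15 genes in each tumour on log axes that differ between panels (MAS5 units). Circles are tumours, the open diamond is mTERC- tumour 2 and lines are group means (n = 3 each). The groups do not overlap in any of these panels, and for Serpina6 mTERC- tumour 2 (7.4) lies far below the other mTERC- tumours.

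A list of neutrophil markers was read next, since the tumours held cells of many types. The list includes S100a8 and S100a9, so its counts, medians and scores include them. Of 17 measured neutrophil markers 15 had a higher mean in mTERC- tumours (52.5% of all 18194 genes did), and 4 were higher with no overlap, beside 5.91% of all genes. Their median log2 difference was 0.78, and 1.14 without mTERC- tumour 2, beside 0.03 and -0.01 over all genes. Without mTERC- tumour 1 the median was 0.51. The score of the list, the mean over its members of a tumour's log2 level minus the mean of the 6 tumours, was -0.69, -0.21 and -0.83 in the mTERC+ and 1.19, 0.49 and 0.05 in the mTERC- tumours. The score, with S100a8 and S100a9 in it, therefore did not overlap, but mTERC- tumour 1 carried the highest value by far. S100a8 and S100a9 were also among the 4 members higher with no overlap, and a score without them was not computed. Camp, an antimicrobial peptide of neutrophil granules, read 9.0, 79.1 and 23.3 against 924, 297 and 50.2. Ngp, another granule protein, read 109.9, 112 and 24.9 against 1680 in mTERC- tumour 1, 359 and 72.2. Csf3r, the receptor for the growth factor of neutrophils, had its highest value in mTERC- tumour 3 instead, with 44.5, 89.5 and 58.7 against 187, 110.0 and 591. Ltf, the granule protein lactoferrin, had 22.7, 81.8 and 3.9 against 773, 168 and 5.4. The granule genes Camp, Ngp and Ltf were thus high in mTERC- tumours 1 and 2 and within the mTERC+ range in tumour 3. Pglyrp1, a granule protein that binds bacterial cell walls and is not on that list, read 10.2, 6.2 and 4.7 against 171, 156 and 134, with a log2 difference of 2.25 (SE 0.59) that was 2.23 without mTERC- tumour 2. Its signal was of like size in all 3 mTERC- tumours.

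Most other markers of the list had overlapping groups. Lcn2, made by neutrophils and by hepatocytes under inflammation, read 20104 to 29158 in the mTERC+ and 21079 to 33517 in the mTERC- tumours. It made up most of the summed signal of the list, which was 21177 to 31048 in the mTERC+ and 30962 to 56468 in the mTERC- tumours. Elane, Prtn3, Ctsg and Mpo, proteases and peroxidase of the earliest granules, had overlapping groups, with log2 differences of 0.11, 0.36, 0.57 and 0.78, and of -0.09, -0.11, 0.07 and 1.14 without mTERC- tumour 2. No marker of the list was at a signal of 0, and Fcnb and Padi4 had a lower mean. Of these 2 markers 1 was lower with no overlap, beside 4.45% of all genes. The part of neutrophil content in the S100a8 and S100a9 difference was not tested. Of the 3 genes that rose, S100a8 and S100a9 are themselves members of this list.

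Beyond these 3 genes the comparison rests on differences that did not pass the adjusted test, and those that did not depend on mTERC- tumour 2 are described here. A difference was kept as a candidate if it was at least 2-fold, without overlap and at an unadjusted p below 0.05 in limma, which 527 probe sets met in the higher direction (1.51%) and 347 in the lower (0.993%). It held if it met the same size and p with mTERC- tumour 2 left out. In the higher direction 284 held (0.812% of all tested, 53.9% of the candidates), and in the lower direction 174 held (0.498%, 50.1%). Counted as genes, 296 were candidates in the higher direction (1.63%) and 200 in the lower (1.1%), of which 163 and 97 held. Most of the losses were differences to which mTERC- tumour 2 contributed most. It was the highest tumour in 201 of the 243 higher probe sets that were lost (82.7%) and in 308 of all 527 candidates (58.4%), and the lowest tumour in 109 of the 173 lower ones that were lost (63.0%) and in 136 of 347 candidates (39.2%). Fewer tumours alone also cost candidates. With any other tumour left out instead, 274 to 401 held in the higher and 189 to 236 in the lower direction. So fewer lower probe sets held without mTERC- tumour 2 than without any other tumour, while for the higher ones the count lay within the range of the others. With the Y-linked level as a covariate in both fits, 70 higher and 68 lower probe sets held.

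**Figure D3:**
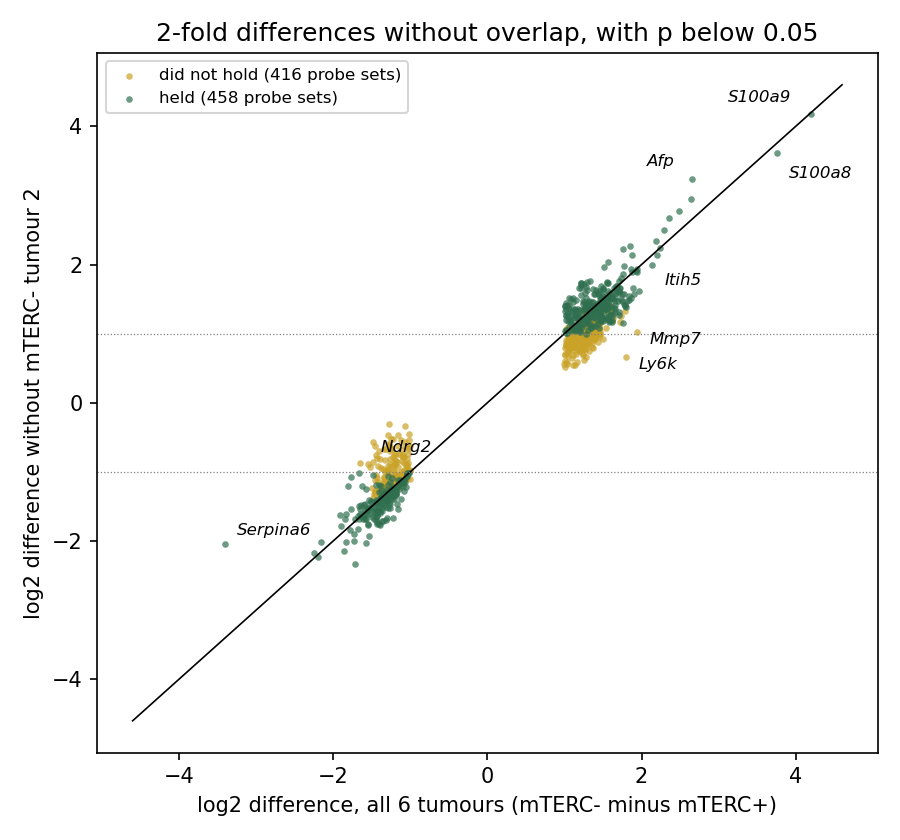
Log2 difference of each candidate probe set with all 6 tumours (x axis) and without mTERC- tumour 2 (y axis), where the solid line marks equality and dotted lines a 2-fold difference. The 458 probe sets that held are green and the 416 that did not are yellow. Most yellow points lie nearer to 0 without that tumour, and Afp lies above the line.

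Of the genes with a held higher value, 3 on the list of fetal and imprinted genes are described first. None of the held genes named here and below passed over all probe sets, with adjusted p values in limma from 0.060 for Cyp2c23 to 0.951, which several of them shared. Afp, the alpha-fetoprotein of fetal liver and of many liver cancers, read 21.7, 172 and 211 in the mTERC+ and 1409.7, 359 and 1158 in the mTERC- tumours. The lowest mTERC- value was that of tumour 2, so the log2 difference of 2.66 (SE 0.50) was 3.24 without it. A further Afp probe set, 1416645_a_at, read 2.2, 78.3 and 105 against 365, 237 and 623, and the other 3 Afp probe sets had overlapping groups. Mdk, the growth factor midkine, was also lowest of its group in mTERC- tumour 2, with 459, 175 and 376 against 1333, 660.4 and 2003. Its log2 difference was 1.84 (SE 0.39), and 2.27 without mTERC- tumour 2. Meg3, an imprinted long noncoding RNA, read 325, 145 and 301 against 367, 1160.0 and 1336. mTERC- tumour 1 was only just above the mTERC+ tumours for Meg3, and its log2 difference of 1.65 (SE 0.42) was 1.42 without mTERC- tumour 2. Of its 10 other probe sets 1 held as well (1426758_s_at, at 1.94), and the rest had overlapping groups.

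Igfbp1, a liver-secreted protein that binds insulin-like growth factors, read 1374, 2659.9 and 2736 in the mTERC+ and 9507, 7746.5 and 3347 in the mTERC- tumours. Its log2 difference was 1.53 (SE 0.40), and 1.38 without mTERC- tumour 2, while mTERC- tumour 3 lay near the upper mTERC+ values. Wnt4, a secreted Wnt ligand, was near the bottom of the scale in mTERC+ tumours, at 6.7, 23.9 and 9.5. It read 982, 149 and 85.9 in the mTERC- tumours, so most of its mean came from mTERC- tumour 1. The Wnt4 difference was 2.64 (SE 0.67), and 2.95 without mTERC- tumour 2, while its other probe set had overlapping groups (1.00). The 17 fetal and imprinted genes together had a median log2 difference of 0.14, and 0.56 without mTERC- tumour 2, and 3 of them held in the higher direction (0.896% of all genes did), the Afp, Mdk and Meg3 genes above. Without mTERC+ tumour 2, which had the lowest score (-0.73), the median was 0.09. Mest, an imprinted gene of the same list, lay the other way, at 227.3, 109 and 78.4 against 17.6, 50.1 and 73.8.

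Cbr3 and Srxn1 were the held higher genes on the list of oxidative stress genes, and Cbr1, a relative of Cbr3, is described beside them. Cbr3 and Cbr1 are carbonyl reductases, which detoxify reactive aldehydes and ketones. Cbr3 read 627, 3005 and 857 in the mTERC+ and 9562, 4376 and 4844 in the mTERC- tumours, a log2 difference of 2.29 (SE 0.44) that was 2.497 without mTERC- tumour 2. Cbr1 read 1905, 3319 and 1124 against 9783, 4553 and 4307, a log2 difference of 1.57 (SE 0.40) that was 1.74 without mTERC- tumour 2. For both, mTERC+ tumour 2 was the highest of its group and mTERC- tumour 1 the highest of all. Srxn1, which repairs oxidised peroxiredoxins, read 532, 1562 and 659 against 2195, 3166 and 2185. Its probe sets 1425351_at and 1426875_s_at had log2 differences of 1.58 and 1.04 beside 1.56 for the first, and a further one, 1419942_at, had overlapping groups. Gclc, which makes the precursor of glutathione, read 1603, 2238 and 1725 against 4401, 3601 and 2437, under 2-fold. Of 19 measured genes that the transcription factor NRF2 controls, 13 had a higher mean, 5 were higher with no overlap (5.91% of all genes) and 2 held (0.896% of all genes), with a median of 0.17 and of 0.33 without mTERC- tumour 2. Hmox1 of this list, the heme-degrading enzyme, lay the other way at 623, 848 and 92.1 against 113, 132 and 162.

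Other held higher genes were single members of varied families. Ier3, an immediate early gene of stress and growth signals, read 898, 618 and 395 against 1656, 1567 and 1335. Bmyc, a relative of Myc, read 192, 780.1 and 531 against 918.5, 2213 and 1475.5. Timp1, an inhibitor of matrix metalloproteases, read 689, 276 and 494 against 1199, 859 and 1104. Slc10a1, the bile salt uptake carrier of hepatocytes, read 281, 375 and 489 against 658, 1012 and 980.4, and its probe set 1450261_a_at held as well. Tnfrsf10b, a death receptor and p53 target, read 18.1, 7.9 and 13.1 against 109, 97.6 and 67.8. Ncapg, a condensin subunit, read 20.9, 8.1 and 15.2 against 83.6, 219 and 105, and the other probe sets of Ncapg and Tnfrsf10b had overlapping groups. The mTERC+ signals of Tnfrsf10b and Ncapg lay below the median signal of the arrays (54.5 to 75.1).

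The held lower genes included single enzymes and plasma proteins that hepatocytes make. Of 23 measured cytochrome P450 genes 10 had a higher and 13 a lower mean, and 1 held in the lower direction (0.533% of all genes). Of 16 genes of bile acid synthesis and transport 5 lay higher and 11 lower in the mean. In that list 1 held higher (0.896% of all genes) and 1 lower. Cyp2c23, a cytochrome P450 that makes epoxides of arachidonic acid, read 1548, 1355 and 5594 in the mTERC+ and 419, 405 and 547 in the mTERC- tumours. The mTERC- tumours lay close together and mTERC+ tumour 3 was the highest, with a log2 difference of -2.25 (SE 0.40). Without mTERC- tumour 2 it was -2.18. Probe sets whose names end in _s_at, as those of Cyp2c23 and C1s1 do, can match transcripts of several related genes. Serpina6, the glucocorticoid carrier of plasma, read 1918, 1388 and 7740 against 526, 7.4 and 793. The value of 7.4 in mTERC- tumour 2 set much of the difference, which was -3.40 (SE 0.69) with that tumour and -2.04 without it. Slc27a5, which activates bile acids and fatty acids, read 3574, 2280 and 3800 against 1891, 1548 and 1244. Hpd, an enzyme of tyrosine breakdown, read 5821, 3383 and 5292 against 2988, 1889 and 348. Its lowest value came from mTERC- tumour 3, and the difference of -1.86 (SE 0.49) was -2.15 without mTERC- tumour 2.

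The complement genes C2 and C1s1 were lower with and without mTERC- tumour 2. C2, a protease of the classical and lectin pathways, read 2306.5, 1465 and 2422.5 in the mTERC+ and 505, 492 and 983 in the mTERC- tumours, a log2 difference of -1.64 (SE 0.34) that was -1.47 without that tumour. The C2 probe sets 1441912_x_at and 1457664_x_at read 1487 and 946 in mTERC- tumour 2, within the mTERC+ range, and were low in mTERC- tumours 1 and 3. C1s1, the protease of the first complement complex, read 5251, 3180 and 2781 against 1596, 755.5 and 1390, and its copies in the mouse genome make the source of this signal uncertain. Of 30 measured genes of complement and coagulation 26 had a lower mean, 5 were lower with no overlap (4.45% of all genes) and 2 held (0.533% of all genes). Their median was -0.38, and -0.24 without mTERC- tumour 2, which had the lowest score of the list (-0.79).

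Alas2, the heme synthesis enzyme of red cell precursors, read 886, 601 and 894 in the mTERC+ and 391, 69.7 and 261 in the mTERC- tumours. Its log2 difference of -1.81 (SE 0.42) was -1.21 without mTERC- tumour 2. Of the 8 measured erythroid markers, Alas2 among them, 4 lay higher in the mean and 4 lower, and their median was 0.02. Transport and membrane genes lower in mTERC- tumours included Abca3, a lipid transporter, at 1393, 559 and 1164 against 313, 222 and 532, and Abcc9, a subunit of potassium channels, at 268, 120.1 and 366 against 18.5, 15.9 and 51.3. The other Abca3 probe sets, 1425496_at and 1451869_at, had overlapping groups at -0.81 and -0.15, beside -1.45 for the first, and those of Abcc9 were at -0.60 and -0.79, beside -2.16, and did not hold. Sgce, a sarcoglycan, read 1894, 1570.5 and 1827 against 889, 763 and 383, and Exoc3l4, a relative of an exocyst subunit, read 650.0, 954 and 859 against 199, 279 and 387. The differences of Sgce and Exoc3l4 were -1.41 (SE 0.34) and -1.44 (SE 0.35), and without mTERC- tumour 2 they were -1.53 and -1.44. The other Sgce probe set had overlapping groups (-0.62). Plxnd1, a semaphorin receptor of endothelium, read 836, 713 and 845 against 254, 75.7 and 552, and its difference of -1.66 (SE 0.44) was -1.02 without mTERC- tumour 2. Lad1, a protein of basement membranes, read 237, 307 and 116 against 10.0, 22.9 and 28.8, a difference of -2.19 (SE 0.58) that was -2.23 without mTERC- tumour 2.

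Macrophage and vessel genes also included held lower values. Cybb, the catalytic subunit of the phagocyte oxidase, read 3240, 4729 and 2019.8 in the mTERC+ and 2002, 939.6 and 893 in the mTERC- tumours, so mTERC+ tumour 3 and mTERC- tumour 1 were almost level. Its log2 difference was -1.38 (SE 0.37), or -1.21 without mTERC- tumour 2, and the probe sets 1422978_at and 1436779_at had overlapping groups at -1.92 and -0.76. Trem2, a lipid-sensing receptor of macrophages, read 72.8, 409.9 and 110 against 16.2, 23.5 and 42.5, while its other probe set had overlapping groups. Of 26 macrophage markers 24 had a lower mean (47.5% of all genes did), 3 were lower with no overlap (4.45% of all genes) and 2 held (0.533% of all genes), with a median of -0.75 that was also -0.75 without mTERC- tumour 2. The scores overlapped, at 0.47, 1.53 and -0.86 in the mTERC+ and -0.11, -0.42 and -0.61 in the mTERC- tumours. mTERC+ tumour 3 was thus the lowest of all 6 and mTERC+ tumour 2 the highest by far, and without mTERC+ tumour 2 the median was -0.23. Without mTERC+ tumour 3 it was -1.42. The summed signal of these markers was 17589 to 87417 in the mTERC+ and 22608 to 30193 in the mTERC- tumours, and no marker was at 0. Ccr2, a chemokine receptor of blood monocytes, lay the other way at 106, 135 and 68.3 against 192, 254 and 146. Ccl2 and Ccl3, chemokines that attract monocytes, held in the lower direction (0.533% of all genes did). Ccl2 read 235, 288 and 115 against 69.1, 79.9 and 32.2, and Ccl3 read 56.7, 169 and 98.4 against 4.2, 9.1 and 6.1. All mTERC- signals of Ccl3 lay below the median signal of the arrays (54.5 to 75.1). Ccl2 and Ccl3 come from a list of 25 chemokines and receptors without a common direction, of which 11 lay higher in the mean and 14 lower. Without overlap 2 were higher (5.91% of all genes) and 2 lower (4.45% of all genes). The median of that list was -0.08, or 0.15 without mTERC- tumour 2. Icam2, an adhesion molecule of vessels, read 239, 290.5 and 281 against 148, 30.0 and 22.1 and held. Of 21 endothelial markers 18 had a lower mean (47.5% of all genes) and 1 held (0.533% of all genes), with a median of -0.41, or -0.52 without mTERC- tumour 2 and -0.19 without mTERC- tumour 3.

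Several of the differences that were lost rested largely on mTERC- tumour 2. Mmp7, the metalloprotease matrilysin of gland epithelium, read 12.2, 15.1 and 19.1 in the mTERC+ and 78.9, 621 and 52.2 in the mTERC- tumours. Ly6k, a membrane-anchored protein of testis and tumours, read 58.0 and 30.7 in mTERC- tumours 1 and 3, 753 in tumour 2 and 5.3 to 27.1 in the mTERC+ tumours. The differences of Mmp7 and Ly6k were 1.95 and 1.79 with that tumour and 1.03 and 0.66 without it. Cyp2b10, a cytochrome P450 induced by drugs, read 331 in mTERC- tumour 2, 58.9 and 112 in the others of its group and 3.5 to 28.9 in the mTERC+ tumours. Sema4c, Adamts10 and Hsbp1l1 were closer calls, with differences of 1.33, 1.31 and 1.39 without mTERC- tumour 2 at unadjusted p values of 0.0585, 0.0562 and 0.0509 in limma. In the lower direction, Ndrg2, a stress-linked gene often low in tumours, read 3092, 2127 and 3154 against 1783, 345 and 1214. S100a1, a relative of S100a8, read 1647, 1205 and 1447 against 1038, 191 and 621. For these, as for Keg1, Tbc1d17 and the sorting nexin Snx2, the groups were apart without mTERC- tumour 2 as well, but by less than 2-fold, with differences of -0.89, -0.80, -0.88, -0.86 and -0.56. Plcd3, a phospholipase, kept a difference of -1.31 and missed the p by little (0.0514 in limma).

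Other differences met the size and p of a candidate without mTERC- tumour 2 but were no candidates with all 6 tumours. Nucb2, the precursor of the peptide nesfatin, read 155, 533 and 324 in the mTERC+ tumours and 1509 and 1193 in mTERC- tumours 1 and 3, with 304 in tumour 2. Its difference was 1.36 with all tumours and 2.04 without tumour 2. Igsf23 read 31.1, 71.9 and 249 against 1683, 138 and 340, a difference of 1.96 with all tumours and 2.71 without tumour 2. Slamf9, an immune cell receptor, read 2342, 1310 and 545 against 4249.5, 404 and 4585, with differences of 0.74 and 1.86. Abce1, which splits ribosomes after translation, Hacd1, an enzyme of fatty acid elongation, and Mzt2, a part of the microtubule-nucleating complex, had differences of 0.71, 0.84 and 0.93 with all tumours and of 1.22, 1.16 and 1.16 without tumour 2, and the groups of Mzt2 did not overlap in either case. In the lower direction, Acacb, which makes malonyl-CoA at mitochondria, read 212, 189 and 274 against 57.6, 259.9 and 7.1, with differences of -1.34 and -2.11. Car2, a carbonic anhydrase, read 224, 294 and 348 against 82.3, 345 and 29.0, and Rarres1 read 985, 587 and 669 against 217, 1504 and 344. For Nucb2, Igsf23, Slamf9, Acacb, Car2 and Rarres1, mTERC- tumour 2 lay within the mTERC+ values or beyond them on the side away from the other 2 tumours of its group. Gpld1, Csrp3 and Mmrn2 had differences of -0.9997, -1.40 and -0.85 with all tumours and of -1.199, -2.07 and -1.31 without that one. None of the genes of this paragraph was called (adjusted p in limma without mTERC- tumour 2 from 0.522 for Nucb2 to 0.965).

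The lists of gluconeogenesis and the urea cycle, fatty acid oxidation and periportal genes had their lowest score in mTERC- tumour 2, and their medians lay nearer to 0 or past it without that tumour. For gluconeogenesis and the urea cycle (17 genes) the median difference was -0.41, and -0.03 without that tumour. Their scores were 0.41, 0.12 and 0.11 in the mTERC+ and 0.38, -0.75 and -0.27 in the mTERC- tumours. Got1, an aminotransferase, is an example, with 1455, 1496 and 1772 against 1289, 214 and 902. Fatty acid oxidation went from -0.20 to 0.11 (15 genes). Acute-phase proteins, whose lowest score was that of mTERC+ tumour 3 (-0.46), went from -0.27 to 0.09 (19 genes). They were also at 0.16 without mTERC+ tumour 1, which had the highest score (0.64). Periportal genes went from -0.26 to -0.09 (12 genes), with a score of -0.81 in mTERC- tumour 2. Fdps, an enzyme of cholesterol synthesis, read 2312, 2678 and 2317 against 2285.5, 369 and 2173, so that its difference of -0.95 was -0.12 without mTERC- tumour 2. Scd1, the desaturase of fatty acid synthesis, behaved otherwise, with 17888, 21851 and 25464 against 12090, 10775 and 11857, and a difference of -0.89 (-0.84 without that tumour). Of 20 measured genes of sterol and fatty acid synthesis, 10 had a higher and 10 a lower mean. Lower with no overlap were 6 (4.45% of all genes), and 0 held in the lower direction (0.533% of all genes). Their median was -0.02, or -0.10 without mTERC- tumour 2. The median of 14 antigen presentation genes was -0.55 (-0.41 without mTERC- tumour 2), and 13 of them lay lower in the mean (47.5% of all genes). H2-Aa, a class II chain, read 3078, 7662 and 4497 against 3012, 1347 and 2525. Markers of hepatocytes themselves, the cell type of the labels, were present in every tumour, with a median difference of -0.14 (-0.16 without mTERC- tumour 2) and a summed signal over 17 markers of 214694 to 341523. Of these 17 markers 14 had a lower mean (47.5% of all genes), 1 was lower with no overlap (4.45%) and 1 held in that direction (0.533%).

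Genes of cell division, Wnt signalling and the telomere came out as follows. The mean of 25 among 29 mitosis genes was higher (52.5% of all genes), 2 of them without overlap (5.91% of all genes), and 0 held (0.896%). Their median difference was 0.45 (0.47 without mTERC- tumour 2). The scores overlapped, at 0.02, 0.09 and -0.73 against -0.01, 0.09 and 0.54, so that mTERC+ tumour 3 was low and mTERC- tumour 3 high. Without mTERC+ tumour 3 the median was 0.26, and without mTERC- tumour 3 it was 0.32. Cdc20, which activates the anaphase-promoting complex, read 391, 288 and 8.6 against 187, 595 and 673. DNA replication genes had a median of 0.24 over 30 genes, with 23 higher, of 0.29 without mTERC- tumour 2 and of 0.03 without mTERC+ tumour 3. The median difference of 20 Wnt targets and pericentral genes was 0.39 (0.28 without mTERC- tumour 2), with 13 of them higher in the mean (52.5% of all genes). Nkd1, a feedback inhibitor of Wnt signalling, held at 12.6, 12.0 and 42.8 against 141, 228 and 92.1, while its 3 other probe sets had overlapping groups. Cyp2e1, a pericentral P450, read 88.7, 514 and 342.5 against 1714, 1867 and 487, with an overlap of mTERC+ tumour 2 and mTERC- tumour 3. Lgr5, a receptor that enhances Wnt signals, read 12.0, 4.5 and 5.8 against 58.0, 20.6 and 57.4, and Lef1, a factor of the same pathway, lay the other way at 60.4, 164 and 85.7 against 11.9, 16.9 and 56.2.

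Telomerase and shelterin genes had a median of -0.04 over 18 genes, 9 higher and 9 lower, and of -0.01 without mTERC- tumour 2. Stn1, a part of the CST complex that completes telomere ends, read 114, 110.4 and 36.1 against 10.7, 22.0 and 14.9, a difference of -1.24 (SE 0.58). Its 2 other probe sets had overlapping groups. Stn1 was the 1 gene of the list without overlap, in the lower direction (4.45% of all genes were). It did not hold, with an unadjusted p of 0.0586 in limma without mTERC- tumour 2. Nhp2, a protein that binds the telomerase RNA, read 969, 1235 and 1246.5 against 2361, 1110.3 and 1674, with a difference of 0.51 (0.78 without mTERC- tumour 2). For 22 targets of p53, a protein absent from all these tumours, the median was 0.10 with and 0.07 without mTERC- tumour 2. Plk2, a p53-induced kinase, lay at 370.4, 175 and 207 against 139.5, 32.8 and 119.7 and did not hold, so Tnfrsf10b was the 1 target that held (0.896% of all genes). Genes of DNA damage signalling and repair had a median of 0.20 over 24 genes, 0.11 without mTERC- tumour 2, and 0 were without overlap. Inhibitors of cyclin-dependent kinases had a median of 0.08 over 10 genes, and of -0.02 without mTERC- tumour 2.

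**Figure D4:**
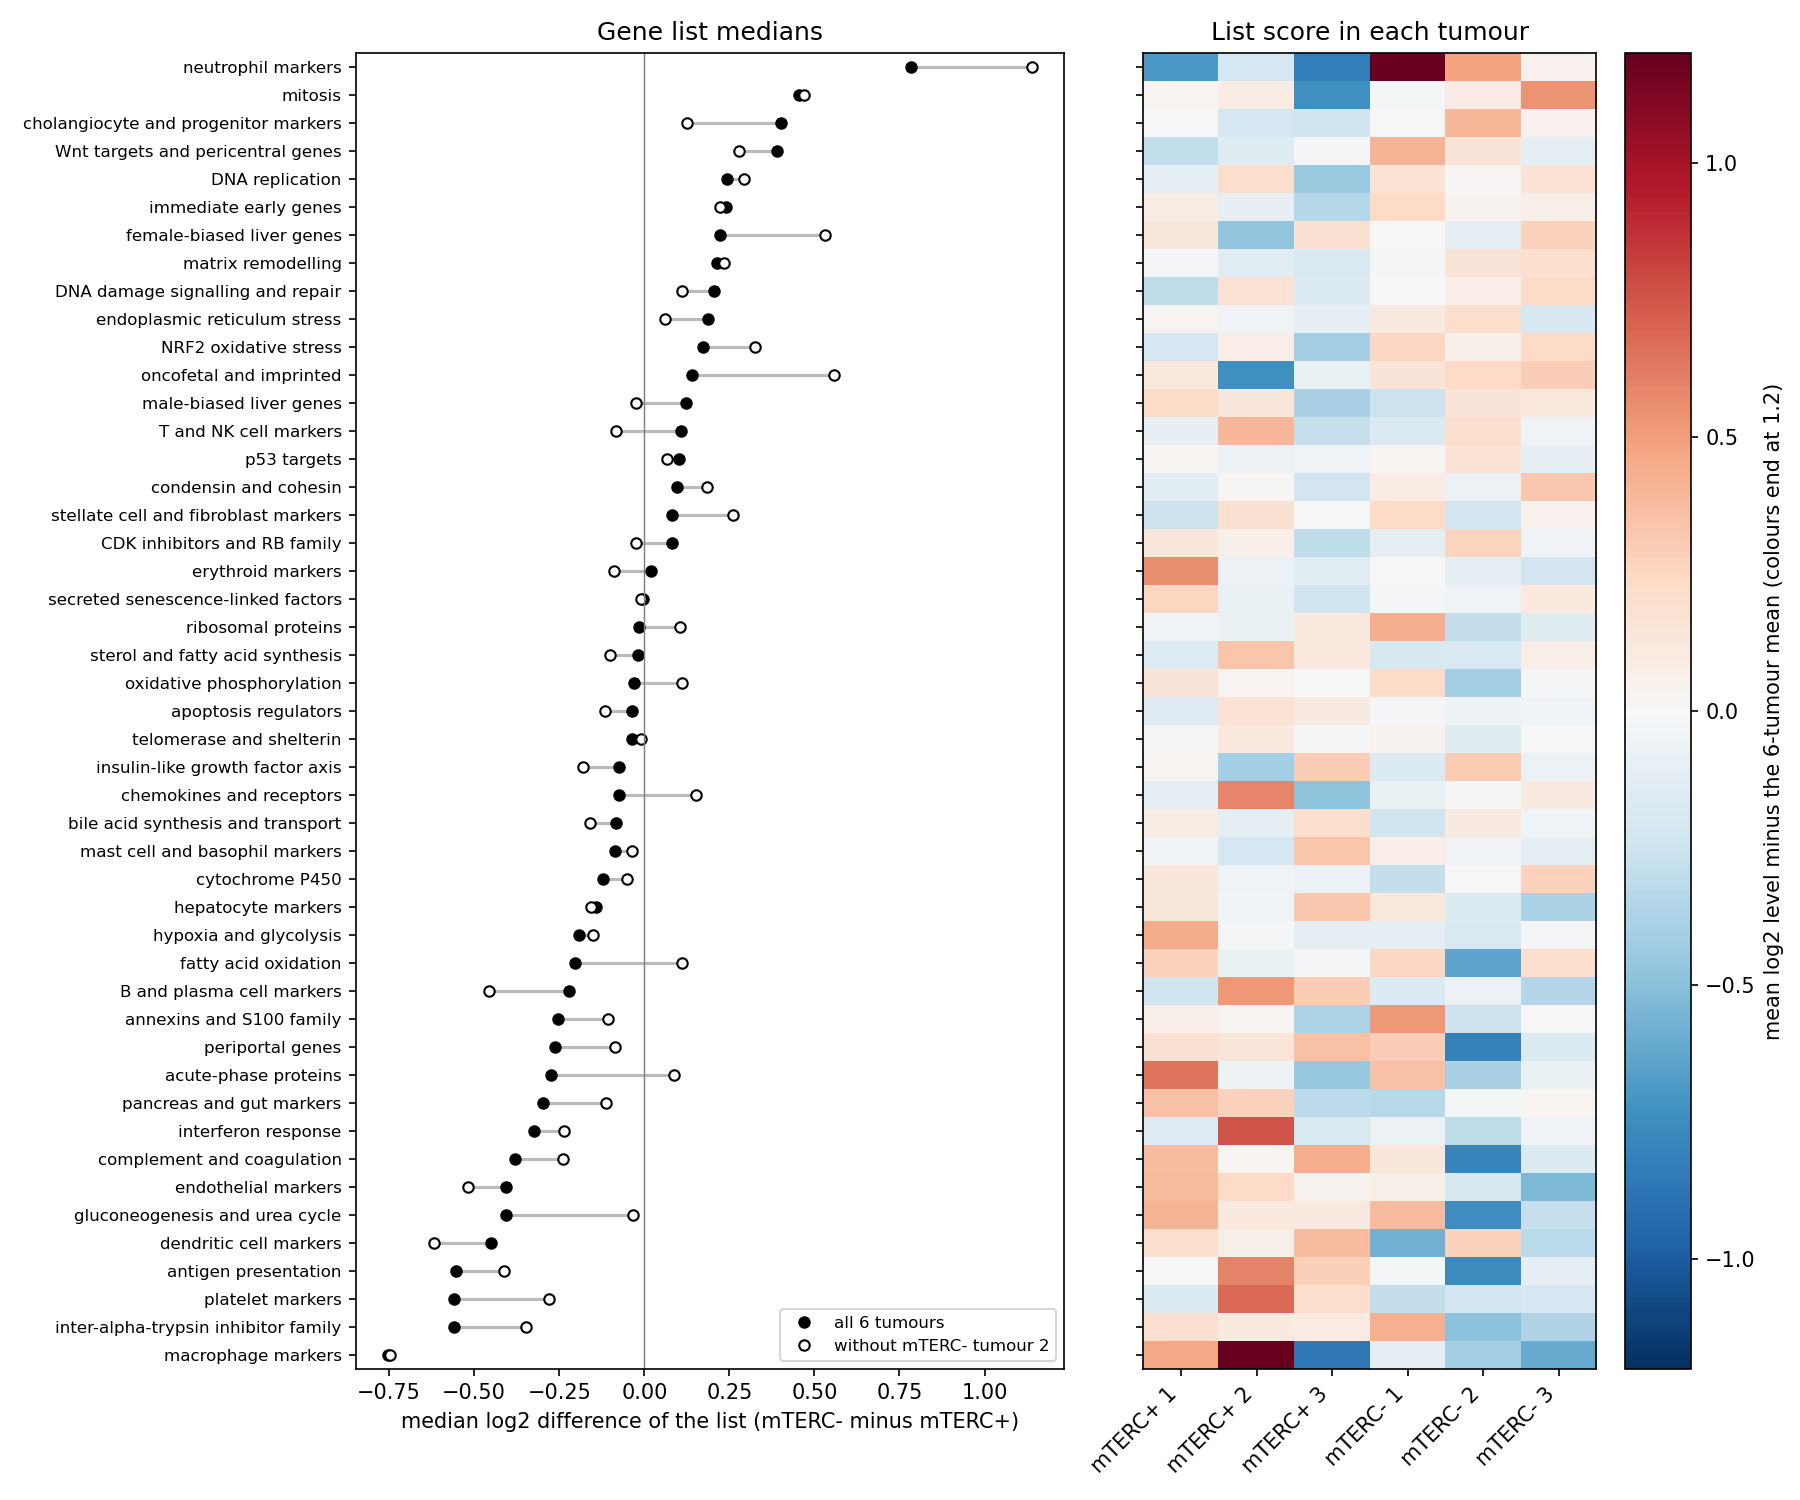
Left, the median log2 difference (mTERC- minus mTERC+) of each gene list with all 6 tumours (filled) and without mTERC- tumour 2 (open). Right, the score of each list in each tumour, the mean log2 level of its members minus the mean of the 6 tumours. Neutrophil markers have the highest median (0.78 and 1.14) and macrophage markers the lowest (-0.75 in both), while complement and coagulation, gluconeogenesis and the urea cycle, fatty acid oxidation and periportal genes have their lowest score in mTERC- tumour 2.

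The tumours of a group differed among themselves in genes of their own, which are given as values without a test. mTERC+ tumour 2 had the widest gap upwards, with Marco, a scavenger receptor of macrophages, at 5349 against at most 251 in any other tumour, and its probe set 1458297_s_at at 4013 against at most 171. Cxcl13, a B cell chemokine, read 5770 there against at most 607, Clec4f, a Kupffer cell lectin, 2986 against at most 586, and Timd4, a receptor of resident macrophages, 369.7 against at most 40.5. These are markers of liver-resident macrophages and their surroundings. mTERC+ tumour 2 also had the highest macrophage score, which itself includes Marco, Clec4f and Timd4. mTERC+ tumour 1 had Bmp7, a growth factor, at 157 against at most 15.9, and the cadherin Cdh3 at 193 against at most 27.4. mTERC+ tumour 3 had hepatocyte genes of its own, the complement gene C8b at 4534 against at most 546 and the organic anion carrier Slc22a7 at 2331 against at most 534, and also the highest Serpina6.

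Among the mTERC- tumours, tumour 1 led in Wnt4, in Ccl20, a chemokine, at 342 against at most 52.5, and in Ngp. It was lowest for Car3, a carbonic anhydrase, at 295 against at least 1412. mTERC- tumour 3 had Rgs16, a regulator of G protein signals, at 1766 against at most 446, the secreted trefoil peptide Tff2 at 712 against at most 135 and the spindle protein Spag5 at 149 against at most 7.6. Kyat3, an aminotransferase, was low there, at 103 against at least 809. mTERC- tumour 2 led in Ly6k, Mmp7, Gxylt2 (233 against at most 7.4) and Stfa3, a stefin (252 against at most 10.6). Its gaps downwards were the widest of any tumour, with Aamp at 43.4 against at least 1507, Get3, a targeting factor for membrane proteins, at 24.6 against at least 1092, and Anxa6, an annexin, at 18.4 against at least 695. The Anxa6 probe set 1429246_a_at was lowest in that tumour too, at 145.0 against 376 to 873, a smaller gap. Of 266 genes that were 2-fold low in mTERC- tumour 2 and had a second probe set, the second was also the lowest of the 6 in 101 (38.0%), beside 3 of 41 to 17 of 42 in the other tumours.

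**Figure D5:**
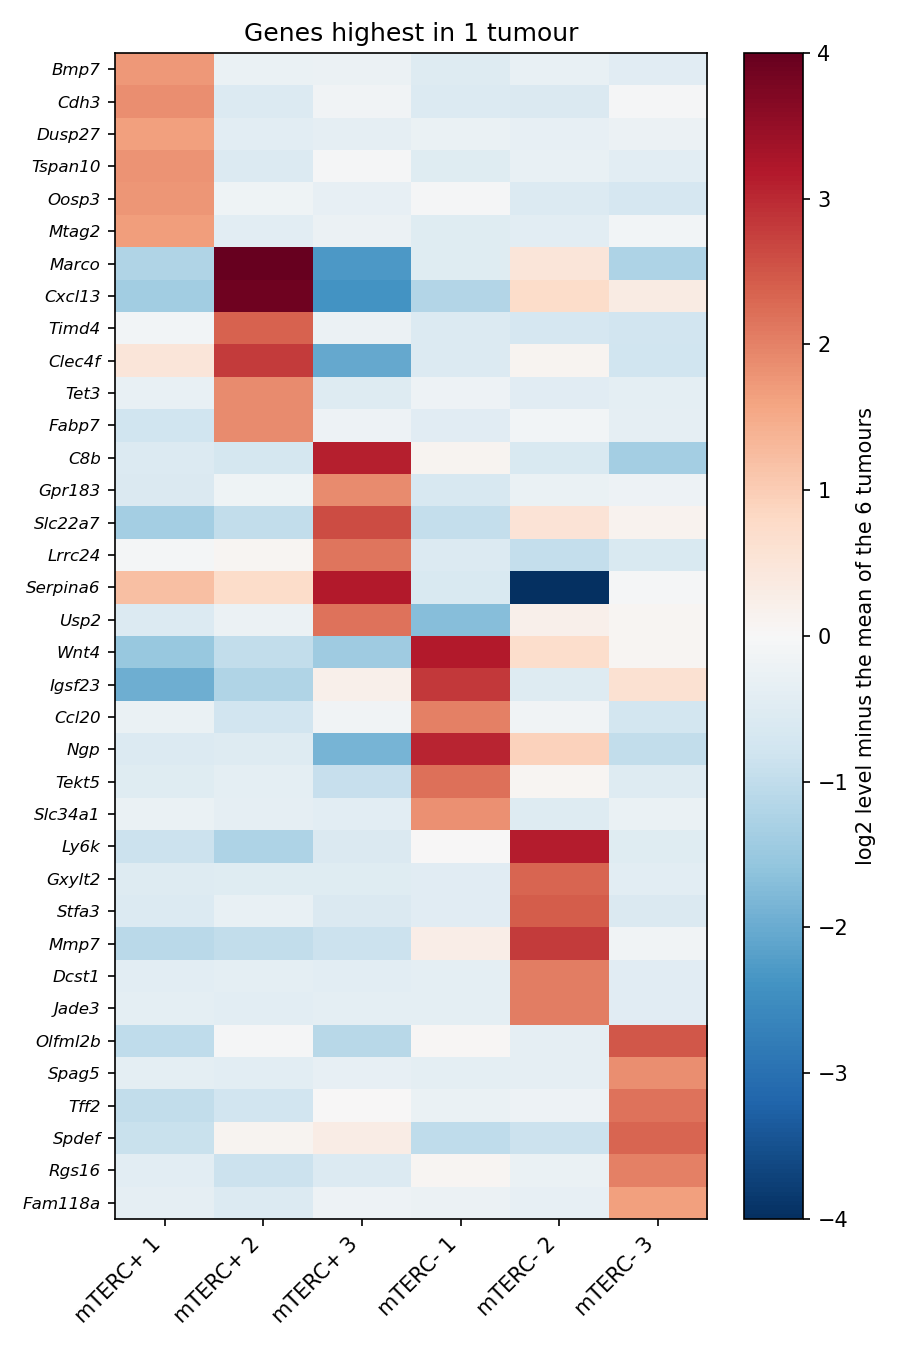
Log2 level of 36 genes minus the mean of the 6 tumours (colours end at 4), for the 6 genes per tumour with the largest gap above all others. Each block is high in 1 tumour by the choice of genes, and Marco and Cxcl13 in mTERC+ tumour 2 have the widest gaps.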

How the data were processed

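Expression was measured in 6 mouse liver tumours on 6 arrays of 45101 probe sets. The deposited values are linear intensities of probe sets, computed with MAS5 per the submitters' processing notes, and the MAS5 version is not given in the sources used here. On each array the mean signal without the lowest and highest 2% was 150, so no further scaling was applied. Of the probe sets 34958 had 1 gene symbol in the platform annotation (18194 genes), 932 had several and 9211 none, and 34754 of the named ones were matched by gene ID to a RefSeq table. All 34958 were kept whatever their level, with a pseudocount of 32 before log2. The groups of 3 entered limma 3.58.1 (R 4.3.3, variance trend, two-sided tests), at a Benjamini-Hochberg adjusted p below 0.05, and refitted without mTERC- tumour 2. The pipeline was tested on simulated data. An exact test of 3 against 3 cannot go below a two-sided p of 0.1. Arrays carry no count of molecules, and their number limits the precision.

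The tumours, gene lists and rules were chosen with earlier results of these data known. Named genes were those called, up to 14 per direction that held, up to 6 per direction that were lost and 6 that were gained, up to 4 per list and up to 6 above and 3 below per tumour. Whole marker lists and held list members outside that rule were named after their values were seen, as were genes of a list that lay the other way. Alternatives were quantile normalization, median centring, pseudocounts of 1 and a higher one, a level filter, 1 probe set per gene or their mean, array weights, no variance trend, a Y-linked covariate, an 18S block and each tumour left out. Added after the data were seen were all probe sets of the array and the held counts with other tumours left out. Probe sets without a single symbol are counted but not named.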

Additional observations from a re-analysis of the deposited data

How the results depend on the processing

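No paired analysis was made because each tumour came from a separate mouse and the labels give no pairing between the groups. The labels carry no replicate numbers either, and the tumours were numbered in accession order only. S100a8, S100a9 and Itih5 were higher under every alternative and with each tumour left out. Calls over all probe sets were few throughout. The number called higher was 1 with quantile normalization, median centring, a pseudocount of 1, a higher pseudocount, the level filter, 1 probe set per gene and the Y-linked covariate, and 0 with no variance trend and with the 18S block. It was 6 with array weights and 6 with all probe sets of the array, where the number called lower was 1 and 4, and with the Y-linked covariate 1 was called lower. The 18S block leaves mTERC- tumour 1 as the 1 mTERC- array among those with a high 18S signal. Leaving out a tumour gave 1 to 6 called higher and 0 to 4 called lower.

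Counts of probe sets that were 2-fold apart without overlap followed the pseudocount and the number tested, with 1438 higher and 1086 lower at a pseudocount of 1, 39 and 50 at the higher pseudocount, 421 and 289 with the level filter, and 407 and 274 with 1 probe set per gene. They were 904 to 1640 higher and 918 to 1083 lower with a tumour left out. Those that held were 33 and 22 at the higher pseudocount, 184 and 112 with 1 probe set per gene and 70 and 68 with the Y-linked covariate, 153 higher with the level filter and 329 lower with no variance trend, and the cause of the last 2 shifts was not tested.

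Of 720 medians of gene lists under alternatives, 659 lay within 1 SD of the list score and 92 had the opposite sign, mostly near 0. Among the lists described, the neutrophil median was 1.296 with a pseudocount of 1 and 1.34 with the level filter, the erythroid one -0.54 with that filter, and the Wnt one 0.67 and 0.18 with the lower and higher pseudocount. With the Y-linked covariate the p53, kinase inhibitor and periportal medians were 0.26, 0.40 and -0.87. With the 18S block the telomerase, fetal, gluconeogenesis and fatty acid oxidation medians were 0.055, 0.506, 0.05 and 0.29. With a tumour left out, the telomerase median ranged from -0.088 to 0.082, DNA damage from 0.004 to 0.196, p53 targets from 0.031 to 0.270, kinase inhibitors from -0.034 to 0.363, fetal genes from 0.086 to 0.556, Wnt targets from 0.12 to 0.59, periportal genes from -0.958 to -0.086 and NRF2 targets from 0.16 to 0.37. Signals near the array median limit the genes at the bottom of the scale, where the pseudocount sets much of a difference.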
